A study of Mus musculus with 9 samples.

Results

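Levels of 8 transcripts of the B7 and CD28 families were examined in transferred CD8+ T cells from 9 mice, with 1 array per mouse. Of these, 5 encode ligands (Cd80, Cd86, Icosl, Cd274 and Pdcd1lg2) and 3 encode receptors (Cd28, Icos and Cd226). The genes were chosen by name, and each of the 8 had a single probe set of its own among 30702 genes that could be tested. The cells were Thy1.1+ CD8+ T cells of pmel1 mice, whose transgenic receptor recognises a peptide of the melanocyte protein gp100, and 2000000 of them were given to each naive congenic recipient. Every recipient was injected intravenously with 100 µg of the human gp100 peptide and 400 µg of antibody. The anti-PD-1/L1 group had 100 µg of anti-PD-1 (RMP1-14), 100 µg of anti-PD-L1 (10F.9G2) and 200 µg of isotype control antibodies. The anti-CD27 group had 200 µg of the agonist AT124 and 200 µg of isotype control, and the combination group had AT124, RMP1-14 and 10F.9G2 at these doses with no isotype control. Each group held 3 mice, and transferred cells were sorted from each spleen on day 4 after peptide. The samples hold no mice given peptide with isotype control only, so each difference is between treatments. The labels describe the recipients as naive and state no age for them.

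B7 ligands are surface proteins that meet receptors of the CD28 family at the contact between a T cell and its partner. CD80 and CD86 bind CD28, which costimulates, and CTLA-4, which inhibits and competes for the same ligands. ICOSL binds ICOS, while PD-L1 (Cd274) and PD-L2 (Pdcd1lg2) bind the inhibitory receptor PD-1. These ligands are best known from dendritic cells and other antigen-presenting cells, but activated T cells also make some of them, PD-L1 and CD80 among them. CD226 is an activating receptor for nectin-like ligands and is outside the CD28 family by sequence, although PD-1 signalling acts on it as on CD28. The arrays measured transcripts, not the surface proteins to which the antibodies bind.

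Promoter sequences of the 2 genes that differed between the combination and anti-CD27 are shown because the data turn on them. Each runs from 250 bases before to 50 bases after the gene start in RefSeq (GRCm38.p6, both on the + strand), and capitals mark the single match found to a searched motif. The Cd80 window lies at chr16:38458683-38458982 and the Cd274 window at chr19:29367188-29367487.
Cd80: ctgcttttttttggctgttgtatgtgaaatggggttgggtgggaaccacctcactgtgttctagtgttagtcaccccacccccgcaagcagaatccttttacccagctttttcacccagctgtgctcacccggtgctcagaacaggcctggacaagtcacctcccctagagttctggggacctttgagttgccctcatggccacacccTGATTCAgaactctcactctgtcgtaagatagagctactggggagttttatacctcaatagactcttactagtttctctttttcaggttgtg
Cd274: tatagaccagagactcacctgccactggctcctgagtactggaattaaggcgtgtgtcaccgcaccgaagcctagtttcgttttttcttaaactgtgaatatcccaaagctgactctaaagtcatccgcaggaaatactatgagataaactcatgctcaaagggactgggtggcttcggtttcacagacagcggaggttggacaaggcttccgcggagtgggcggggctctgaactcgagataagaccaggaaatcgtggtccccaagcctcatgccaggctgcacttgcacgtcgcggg
Letters of 4 motifs were searched on both strands of these windows and of the Pdcd1lg2 and Icosl windows. The AP-1 element, TGANTCA, was in the Cd80 window as TGATTCA, starting 42 bases before the gene start, and it is in 7.81% of 32851 mouse promoter windows of this length. The interferon-stimulated response element (searched as GAAA, any 2 bases and GAAA, in 3.44% of windows), the gamma-activated sequence (TTCNNNGAA, 8.3%) and the E-box (CACGTG, 7.15%) had no match in any of the 4 windows. Windows of 4 of the 8 genes are used here, and any window of Cd226 was left out. A match is a description of letters and not a binding site shown by these data.

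The 3 anti-PD-1/L1 arrays stood apart from the other 6. Their 1324 positive control probe sets, named so by their identifiers, had means of 5.59 to 5.96 on the log2 scale, against 6.68 to 6.72 for anti-CD27 and 6.76 to 6.83 for the combination. Their background control probe sets averaged 4.06 ± 0.08 (SD, n = 3), against 3.27 ± 0.06 and 3.25 ± 0.04. Their 8 bacterial and phage control probe sets averaged 9.75 ± 0.12, against 8.60 ± 0.02 and 8.60 ± 0.11. This shift is opposite in direction to that of the positive controls. In both comparisons with these arrays 72.3% and 70.8% of all genes passed the test, and the median difference of all genes was -0.26. Those comparisons are therefore given after the one between the combination and anti-CD27, with differences also relative to that median. The median rests largely on low probe sets. Among the 50% of genes with the highest means, which hold 7 of the 8 genes, it was -0.032 for the combination and -0.058 for anti-CD27. It is a reference and not a correction for the shift of these arrays. The cells matched their label in the markers of T cells: all 10 transcripts of the T cell identity list, Cd3e, Cd8a and Thy1 among them, were above the background mean in each group. The list averaged 9.24 to 9.25 in anti-CD27, 9.09 to 9.18 in the combination and 8.15 to 8.63 in anti-PD-1/L1.

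Levels are RMA values on the log2 scale, in which a difference of 1 is a doubling. By mean level, 7 of the 8 genes were among the upper 50% of all genes, with Pdcd1lg2 the exception. The background controls were 23 probe sets, and their 95th percentile was 6.73 to 8.46 on single arrays. A limit of this kind does not give the place of a gene among all genes. Only 21 of 72 values (8 genes on 9 arrays) exceeded the 95th percentile of the background controls on their own array, and 66 of 72 exceeded the mean of those controls. The first limit was passed by Cd28 and Icos on all 6 arrays of anti-CD27 and the combination, by Cd226 on 7 of 9 arrays and by Cd274 on 2. Near background such values understate true ratios, and the log2 differences given here share that limit. All tests below are limma's moderated test over 9 arrays, two-sided, with Benjamini-Hochberg adjustment over 30702 genes, and a called gene is one with an adjusted p under 0.05. The p-values rest on a spread between mice that is pooled over the 3 groups and moderated across genes. The groups differed in spread: for Icos the SD was 0.0098 in anti-CD27, 0.069 in the combination and 0.324 in anti-PD-1/L1. The anti-PD-1/L1 arrays thus enter the tests between the other groups.

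**Figure D1:**
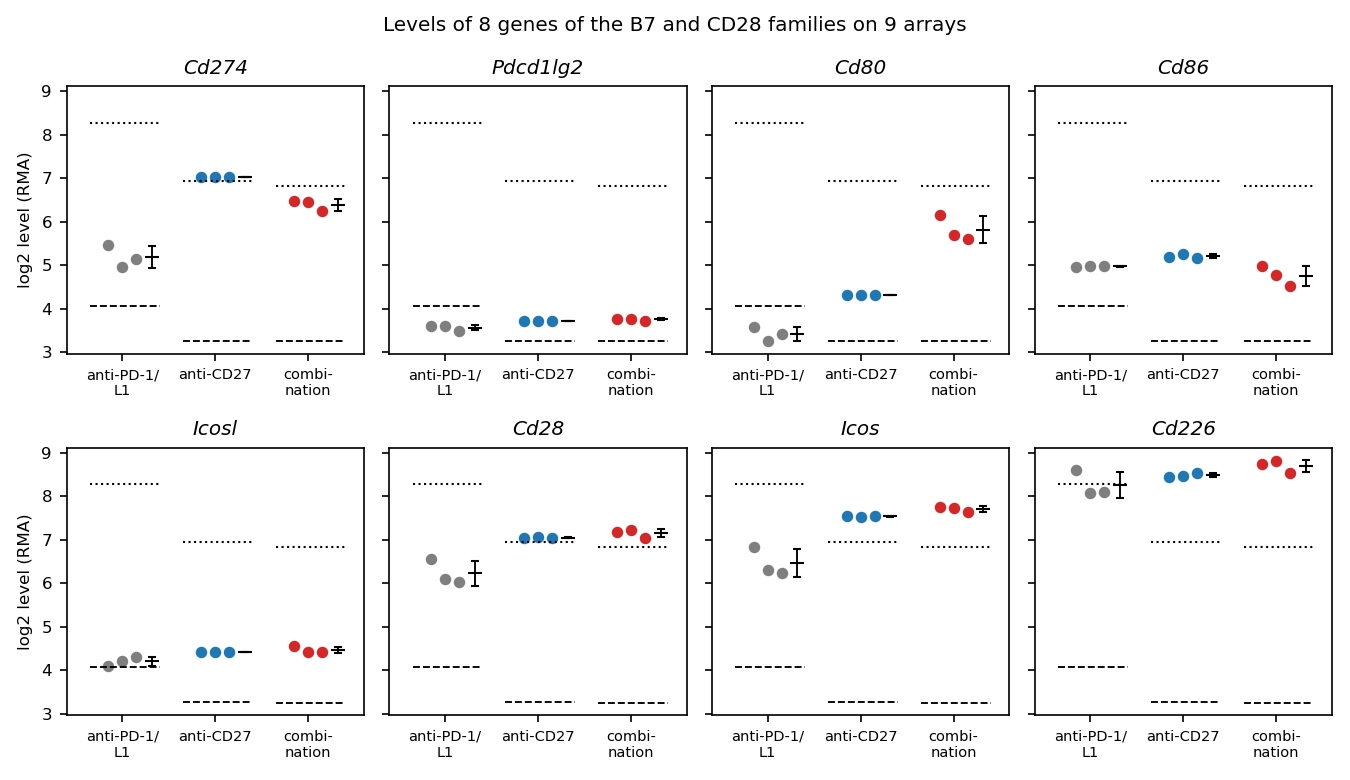
Log2 level (vertical axis) of each of the 8 genes on the 9 arrays, by treatment group. Points are single mice, bars beside them the mean ± SD of 3, dashed lines the mean and dotted lines the 95th percentile of the background controls of the group. Cd80 stands at 5.60 to 6.16 in the combination, above all other arrays, whereas Cd274 is highest in anti-CD27 (7.02 to 7.03).

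Cd80 had the larger of the 2 called differences between the combination and anti-CD27. It encodes a ligand of CD28 and CTLA-4 that can also pair with PD-L1 on the same cell. In the combination its log2 levels were 6.16, 5.69 and 5.60. In anti-CD27 all 3 arrays read 4.32, and in anti-PD-1/L1 the levels were 3.57, 3.26 and 3.42. The 3 groups did not overlap, and the order was combination, anti-CD27, anti-PD-1/L1. Cd80 rose in the combination over anti-CD27 by 1.50 ± 0.14 (log2 difference ± SE, 95% interval 1.18 to 1.82, limma adjusted p = 0.00209), and 0.0749% of all genes rose by more. It stayed past the threshold in all 17 alternative settings run, with differences of 1.33 to 1.61 and limma adjusted p-values of 0.000238 to 0.0182.

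Against anti-PD-1/L1, Cd80 was higher by 2.40 ± 0.14 in the combination (limma adjusted p = 2.16e-06) and by 0.90 ± 0.14 in anti-CD27 (limma adjusted p = 0.000485). These are 2.66 and 1.16 above the median of all genes, a reference with the limit given above. All 3 anti-PD-1/L1 arrays lay under the mean of their background controls, so that only a limit is known there. Measured from that mean on the deposited scale, Cd80 was higher by 1.75 in the combination and by 0.26 in anti-CD27. These values are no firm lower limits, because the background controls differed between the groups (4.06 against 3.25 in the combination and 3.27 in anti-CD27). Both calls were lost when the mean of the positive controls on each array was added to the fit, where the differences were 1.61 (limma adjusted p = 0.18) and 0.19 (limma adjusted p = 0.882). That covariate itself separates the anti-PD-1/L1 arrays from the others without overlap.

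Cd86, the other ligand of CD28 and CTLA-4, did not follow Cd80. Its levels were 4.98, 4.78 and 4.52 in the combination, 5.18, 5.26 and 5.17 in anti-CD27, and 4.95, 4.98 and 4.98 in anti-PD-1/L1. The combination lay below anti-CD27 on every array and overlapped anti-PD-1/L1. The difference from anti-CD27 was -0.44 ± 0.10 (95% interval -0.68 to -0.21) and missed the threshold with a limma adjusted p of 0.081. It passed without combination replicate 1, the highest of its group, with a difference of -0.55 (limma adjusted p = 0.0346). Against anti-PD-1/L1 the differences were -0.21 (limma adjusted p = 0.0886) for the combination and 0.23 (limma adjusted p = 0.0666) for anti-CD27, neither of them past the threshold. The second passed without combination replicate 1 (limma adjusted p = 0.0236) or 3 (0.0143), and the first without combination replicate 1, at -0.32 (0.0103).

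Icosl encodes the single known ligand of ICOS. Its levels were 4.55, 4.42 and 4.42 in the combination and 4.41, 4.42 and 4.42 in anti-CD27, which overlap. In anti-PD-1/L1 they were 4.11, 4.21 and 4.30, below all others. The combination and anti-CD27 differed by 0.04 ± 0.06 (95% interval -0.10 to 0.19, limma adjusted p = 1). Icosl was higher than in anti-PD-1/L1 by 0.26 in the combination (limma adjusted p = 0.00588) and by 0.21 in anti-CD27 (limma adjusted p = 0.0152). With the positive control covariate these differences were 0.72 and 0.63 and no longer passed (limma adjusted p = 0.131 and 0.134).

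Cd274 encodes PD-L1, the ligand that 10F.9G2 binds. Its levels were 7.03, 7.03 and 7.02 in anti-CD27, 6.47, 6.46 and 6.24 in the combination, and 5.46, 4.95 and 5.15 in anti-PD-1/L1. No groups overlapped, and the order differed from that of Cd80: anti-CD27 was highest, the combination intermediate and anti-PD-1/L1 lowest. Compared with anti-CD27, Cd274 fell by 0.64 on the log2 scale in the combination (SE 0.12, 95% interval -0.92 to -0.36, limma adjusted p = 0.0407). This call was near the threshold. Leaving out any 1 of the 6 arrays of these groups, or anti-PD-1/L1 replicate 3, ended it, with limma adjusted p-values of up to 0.169 and differences that stayed between -0.68 and -0.56. It was also lost after quantile normalization (-0.65, limma adjusted p = 0.0619).

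Against anti-PD-1/L1, Cd274 was higher by 1.84 ± 0.12 in anti-CD27 (limma adjusted p = 4.91e-06) and by 1.20 ± 0.12 in the combination (limma adjusted p = 4.16e-05). Relative to the median of all genes these differences were 2.10 and 1.46, with the limit of that median given above. With the positive control covariate the first was 0.75 (limma adjusted p = 0.262), and the second turned to -0.012 (limma adjusted p = 0.992).

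Pdcd1lg2 encodes PD-L2, the second ligand of PD-1, and lies next to Cd274 on chromosome 19. Its levels were 3.77, 3.77 and 3.73 in the combination, 3.72 on each anti-CD27 array, and 3.60, 3.60 and 3.50 in anti-PD-1/L1. The last were below the mean of the background controls on all 3 arrays, and no lower limit on the difference from them can be given. The groups did not overlap, but the whole range over 9 arrays was narrow. Combination and anti-CD27 differed by 0.04 ± 0.05 (95% interval -0.08 to 0.15, limma adjusted p = 1), in contrast to the fall of Cd274. The difference from anti-PD-1/L1 was 0.19 for the combination (limma adjusted p = 0.00791) and 0.15 for anti-CD27 (limma adjusted p = 0.0221). Both turned sign with the positive control covariate, to -0.084 and -0.094, and neither was then called. The second was also lost without any 1 anti-CD27 replicate (limma adjusted p of up to 0.0598).

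Identical readings on several arrays, as for Cd80 and Pdcd1lg2 in anti-CD27, were not peculiar to these genes. Of all genes, 8.56% had the same value on all 3 anti-CD27 arrays, 5.49% on the combination arrays and 0.713% on the anti-PD-1/L1 arrays. The SD of 0 for both genes in anti-CD27 is therefore no measure of the spread between mice, and the test used a spread pooled over groups and moderated across genes.

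Cd28 encodes the receptor of CD80 and CD86 that gives the main costimulatory signal to T cells. Its levels were 7.19, 7.21 and 7.04 in the combination and 7.04, 7.06 and 7.04 in anti-CD27. In anti-PD-1/L1 they were 6.55, 6.10 and 6.03, below the other 6 arrays. Combination and anti-CD27 overlapped and differed by 0.10 ± 0.12 (95% interval -0.18 to 0.38, limma adjusted p = 1), a difference of -0.059 with the positive control covariate.

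Icos, an inducible relative of Cd28 that activated T cells display, read 7.76, 7.74 and 7.63 in the combination, 7.54, 7.52 and 7.53 in anti-CD27, and 6.83, 6.31 and 6.24 in anti-PD-1/L1. The groups did not overlap. Even so, the difference between the combination and anti-CD27 of 0.18 ± 0.14 (95% interval -0.14 to 0.49) did not pass, with a limma adjusted p of 0.958, and with the positive control covariate it was -0.0038.

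Cd226 encodes an activating receptor that competes with TIGIT for ligands. Its levels were 8.75, 8.80 and 8.52 in the combination, 8.45, 8.47 and 8.54 in anti-CD27, and 8.60, 8.08 and 8.10 in anti-PD-1/L1. All 3 groups overlapped with at least 1 other, and the first anti-PD-1/L1 array lay above all anti-CD27 arrays. Combination and anti-CD27 differed by 0.21 ± 0.14 (95% interval -0.11 to 0.52, limma adjusted p = 0.875).

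Against anti-PD-1/L1, Cd28 was higher by 0.92 in the combination and 0.82 in anti-CD27 (limma adjusted p = 0.0002 and 0.000415), and with the positive control covariate both turned sign, to -0.66 and -0.60. Icos was higher by 1.25 and 1.07 (limma adjusted p = 6.26e-05 and 0.00016), and these turned to -0.54 and -0.53. Cd226 was higher in the combination by 0.43 (limma adjusted p = 0.0209), which turned to -1.24. The call on Cd226 was lost without anti-PD-1/L1 replicate 2 or 3 or combination replicate 1 or 2 (limma adjusted p of up to 0.0746), and after quantile normalization, where the difference was 0.10. For anti-CD27 the difference of Cd226 was 0.22 (limma adjusted p = 0.171). It turned to -0.078 after quantile normalization and to -1.27 with the covariate, and it passed at 0.40 without anti-PD-1/L1 replicate 1 (limma adjusted p = 0.00389). None of the differences fitted with the covariate was called. Because the covariate separates the anti-PD-1/L1 arrays from the others without overlap, these differences are uncertain in size and sign. The positive controls themselves were 1.06 higher in the combination and 0.95 higher in anti-CD27 than in anti-PD-1/L1 (exact permutation p = 0.1, the smallest that 3 arrays against 3 allow), and their part in the receptor differences was not tested apart from this covariate.

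**Figure D2:**
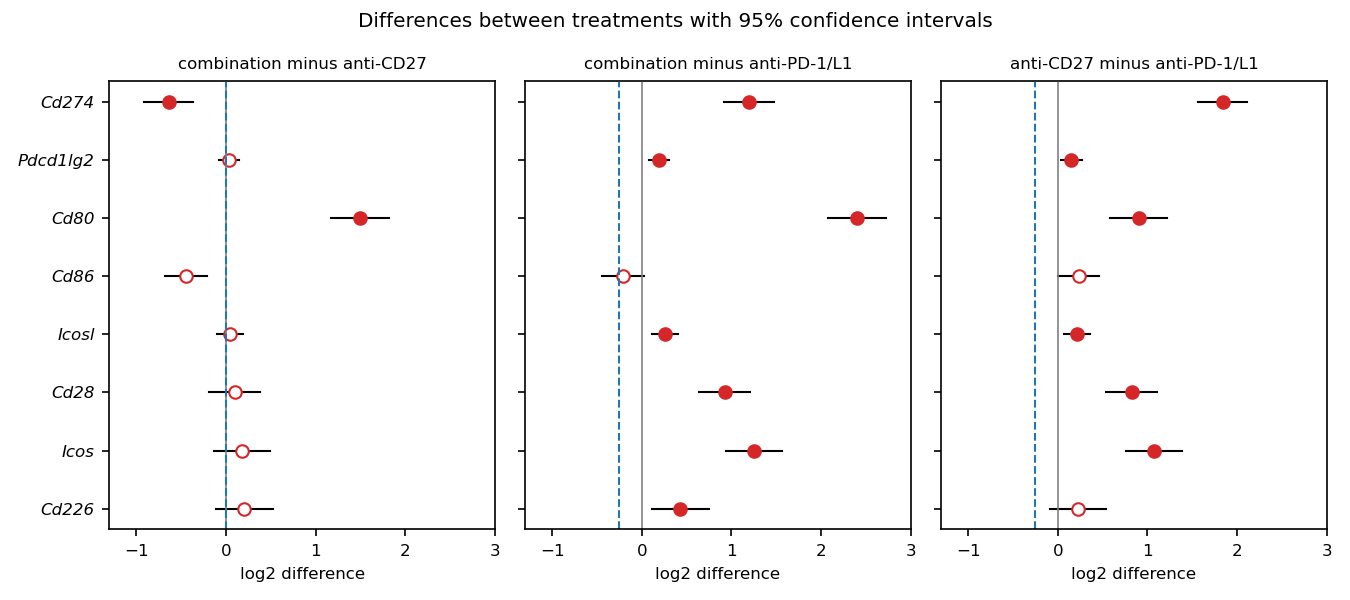
Log2 difference (horizontal axis) with its 95% interval for each gene in the 3 comparisons. Filled points passed the test, and the dashed line is the median of all genes. Cd80 is higher and Cd274 lower in the combination than in anti-CD27. Against anti-PD-1/L1, differences of Cd28, Icos, Cd226 and Pdcd1lg2, and that of Cd274 for the combination, turn sign with the positive control covariate. None of these is called with that covariate. The difference of Cd226 for anti-CD27 also turns sign after quantile normalization.

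Counted over the set, 1 of 8 genes rose and 1 fell in the combination compared with anti-CD27, where 1.28% of all genes were called higher, 0.528% lower and 1.8% in either direction. Groups did not overlap for 5 of 8 genes in this comparison, against 20.5% of all genes (12.1% higher and 8.46% lower). The median difference of the 8 genes was 0.07, beside -0.00317 for all genes. Between the combination and anti-PD-1/L1, 7 of 8 genes were higher and 0 lower, and 6 of 8 did not overlap. Among all genes in that comparison 72.3% were called, 19% higher and 53.3% lower, and 73.5% did not overlap (18.9% higher and 54.6% lower). Between anti-CD27 and anti-PD-1/L1, 6 of 8 were higher and 0 lower, and 7 of 8 did not overlap, where 70.8% of all genes were called, 17.1% higher and 53.7% lower, and 72.5% did not overlap (17.5% higher and 55.1% lower). The share of the set that was called or did not overlap is thus near the share of all genes, although its calls were all higher, and with the positive control covariate it held 0 calls. Both comparisons share the anti-PD-1/L1 arrays.

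The split of all genes in these comparisons moved with the scaling. The combination had 5839 genes higher and 16368 lower than anti-PD-1/L1 as deposited, and 7150 and 9140 after quantile normalization. For anti-CD27 the counts were 5265 and 16472, and 6512 and 9407. Of the 8 genes, 6 were then higher in the combination and 7 in anti-CD27, and with the positive control covariate 0 were called in either direction in both comparisons.

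**Figure D3:**
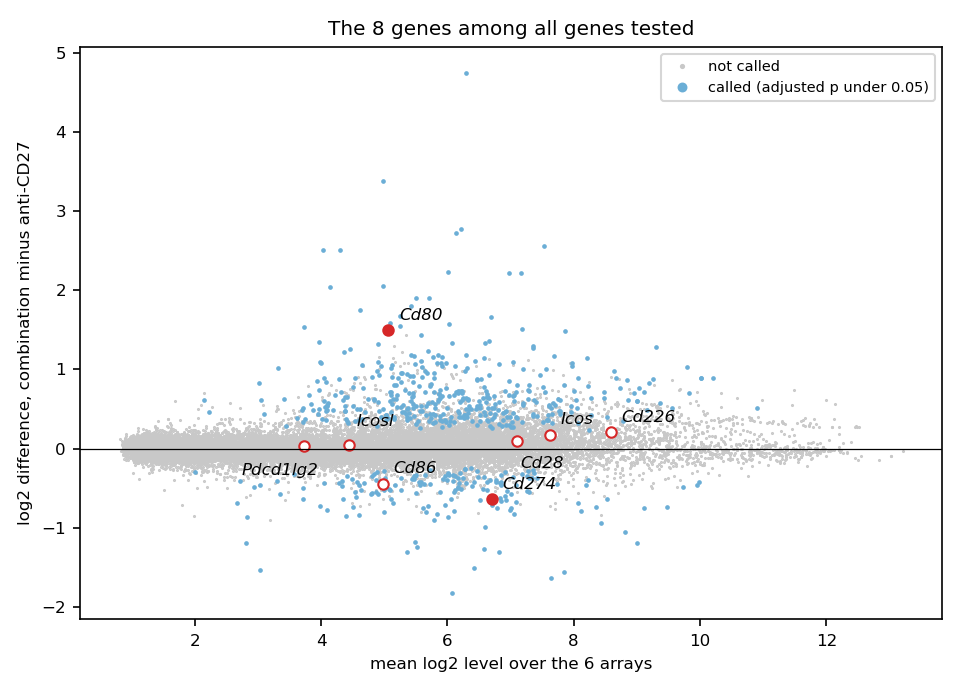
Log2 difference between the combination and anti-CD27 (vertical axis) against the mean log2 level over the 6 arrays (horizontal axis) for 30702 genes, with the 8 genes named and called genes coloured. Cd80, at 1.50, lies among the larger rises, and Cd274, at -0.64, lies among the called falls.

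Other genes of the pathway were read from lists chosen with earlier results of these data known, first between the combination and anti-CD27. Their calls are a description beside the 8 genes and not independent support. Of 13 further genes listed with the B7 and CD28 families, not all of them members, 1 rose and 1 fell, with a median of -0.07. Cd160, a receptor of HVEM, rose from 6.93 ± 0.20 to 7.66 ± 0.02 (difference 0.73 ± 0.11, limma adjusted p = 0.0143). Ctla4, the inhibitory receptor that shares the ligands of CD28, fell from 7.42 ± 0.14 to 6.75 ± 0.11 (difference -0.67 ± 0.09, limma adjusted p = 0.00773). Thus the transcript of 1 CTLA-4 ligand rose while that of the receptor fell. The call on Cd160 was lost without anti-CD27 replicate 1 or 2 or any 1 combination replicate (limma adjusted p of up to 0.08), and that on Ctla4 held in all 17 alternatives.

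In the 9 measured nectin receptors and ligands of the CD226 axis, 0 were called, and the largest difference was that of Tigit, the inhibitory counterpart of CD226, at 0.35 (limma adjusted p = 0.464). Among 21 signalling genes downstream of CD28 and ICOS 0 were called by limma, with a median of 0.02. The largest difference there was that of Grap2, an adaptor that links CD28 to SLP-76, at -0.24 (limma adjusted p = 0.211). Among 16 regulators of PD-L1 transcription and protein, 1 fell. This was Ifngr2, a chain of the interferon-gamma receptor, whose signal raises PD-L1, from 4.56 ± 0.10 to 4.09 ± 0.07 (difference -0.48 ± 0.07, limma adjusted p = 0.013). Its call was lost without anti-CD27 replicate 1 or 2 or combination replicate 1 or 3 (limma adjusted p of up to 0.0747).

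Of 13 genes that CD28 signals raise in T cells, Icos among them, 1 rose and 1 fell. Il2ra, which gives the interleukin-2 receptor its high affinity, was at 5.56 ± 0.14 against 3.05 ± 0.05, the latter under the background mean of its group. Measured from that mean it was higher by 2.29 in the combination (fitted difference 2.51, limma adjusted p = 5.92e-05). Rel, a subunit of NF-kappaB that acts downstream of CD28, fell from 7.95 ± 0.09 to 7.51 ± 0.15 (difference -0.45 ± 0.09, limma adjusted p = 0.0413). The call on Rel was lost without any 1 of the 6 arrays or anti-PD-1/L1 replicate 2, with limma adjusted p-values of up to 0.184. Fits to only these 6 arrays (limma adjusted p = 0.0558), to all transcript probe sets (limma adjusted p = 0.0818) and with a trended robust spread (limma adjusted p = 0.0546) ended it too, and it held in 7 of 17 alternatives.

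Set against anti-PD-1/L1, these lists held many calls. Of the 21 signalling genes, 18 were higher in the combination and 19 in anti-CD27, with 0 lower and medians of 1.60 and 1.44 beside -0.26 for all genes, and with the positive control covariate 3 and 5 stayed higher. Of the 16 regulators of PD-L1, 11 were higher and 4 lower in the combination, and 9 and 3 in anti-CD27. Of the 13 genes raised by CD28 signals, 11 were higher and 1 lower in the combination, and 8 and 1 in anti-CD27. The 13 further genes listed with the B7 and CD28 families had 3 higher and 7 lower in the combination, and 4 and 6 in anti-CD27. The 9 nectin axis genes had 4 higher and 5 lower, and 3 and 5. With the covariate no more than 4 genes of any of these last 4 lists were called higher and no more than 1 lower in either comparison.

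Because antigen-presenting cells carry much B7 ligand, their markers were read beside Cd80. Of 14 measured dendritic cell markers, 1 was called between the combination and anti-CD27. This was Itgax, the CD11c chain, which activated CD8+ T cells also make, and which rose from 4.77 ± 0.28 to 7.49 ± 0.10 (difference 2.73 ± 0.14, limma adjusted p = 0.000168). The list averaged 4.06 to 4.13 in the combination and 3.84 to 3.89 in anti-CD27. Without Itgax, a trimming made after the values were seen, it averaged 3.80 to 3.86 and 3.79 to 3.81. Of this list, Flt3, Zbtb46, Cd209a, Xcr1, Clec9a, Siglech and H2-Aa were not above the background mean in the combination. The other 7 of 14 were above it there. Besides Itgax these were the class II genes H2-Ab1 (4.99 ± 0.28 against 4.61 ± 0.17 in anti-CD27, limma adjusted p = 0.34) and H2-Eb1 (3.95 against 3.78, limma adjusted p = 0.767), with Ly75 (6.66 against 6.60), Batf3 (4.997 against 4.939), Ciita (3.26 against 3.27) and Ccr7 (9.25 against 9.63), none of them called. The part of such cells in the rise of Cd80 was not tested.

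Of 12 monocyte and macrophage markers 0 were called in that comparison, and the list averaged 3.20 to 3.27 in the combination and 3.18 to 3.27 in anti-CD27. Csf1r, Adgre1, Lyz2, Cd14, Fcgr1, Vcam1 and Spic were not above the background mean in either group, and the other 5 were above it in both. These were Cd68 (5.90 in the combination and 5.55 in anti-CD27), C1qa (4.16 and 4.12), C1qb (3.73 and 3.59), C1qc (3.47 and 3.43) and Marco (3.88 and 3.98). Of 10 B cell markers 0 were called, and Ms4a1, Cd79a, Blnk, Cr2, Fcer2a and Ebf1 were not above it in either group. The 4 that were above it in both were Ighm (8.99 in the combination and 9.48 in anti-CD27), Cd79b (5.40 and 5.64), Cd22 (4.74 and 4.56) and Pax5 (3.90 and 3.93). The 9 neutrophil, 3 CD4 T cell and 2 erythroid markers also had 0 calls by limma. Of 7 NK cell markers 3 were called, and the list averaged 3.86 to 3.96 in the combination and 3.24 to 3.33 in anti-CD27. Gzma rose by 2.78 ± 0.24 and Eomes by 1.10 ± 0.14, with limma adjusted p-values of 0.00137 and 0.00757. Klri2 (limma adjusted p = 0.0143) was under the background mean in both groups, at 2.45 and 1.84, so that no size is given, and its call was lost without any 1 anti-CD27 replicate or combination replicate 1 or 2 (limma adjusted p of up to 0.0766). Gzma and Eomes are also effector genes of CD8+ T cells, and of the other NK cell markers Ncr1 and Klra9 were not above the background mean in any group, while Klrb1c (3.45 and 3.59) and Tyrobp (3.44 and 3.60) were above it in the combination and anti-CD27. In a sorted bulk sample, fewer cells with a transcript and less of it per cell cannot be told apart.

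**Figure D4:**
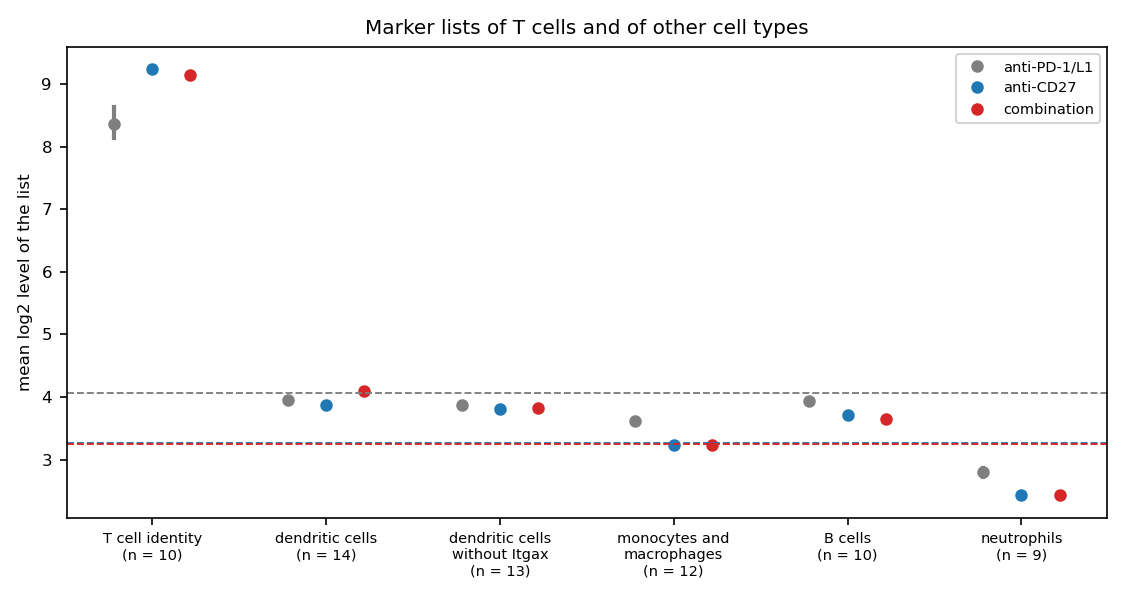
Mean log2 level (vertical axis) of markers of T cells, dendritic cells, monocytes and macrophages, B cells and neutrophils in the 3 groups. The NK cell, CD4 T cell and erythroid lists are not drawn. Points are means of 3 arrays, lines the range over the arrays where it exceeds the point, and dashed lines the mean of the background controls of each group; T cell markers lie between 8.15 and 9.25, and the dendritic cell list without Itgax between 3.79 and 3.92.

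Genes with the profile nearest to each called gene were found by the root mean square difference of log2 levels over the 9 arrays, after each gene was centred on its own mean. For Cd274 these were Sntb1 (0.13), Clk1 (0.14) and Nfkbie (0.15), where the profile of Cd274 itself had a root mean square spread of 0.77. Nfkbie, an inhibitor of NF-kappaB, read 7.29 in anti-CD27, 6.89 in the combination and 5.71 in anti-PD-1/L1. For Cd80, with a spread of 1.00, they were Lilr4b (0.23), an immunoglobulin-like receptor gene that read 4.24, 5.56 and 3.27 in these groups, Crybg1 (0.26) and Ccnb2 (0.30), the mitotic cyclin B2, which read 7.12, 8.61 and 6.39. Cd28 lay at 0.04 from each of Atp11b, Cab39 and Oip5os1, and Icos at 0.04 to 0.05 from Atp13a3, Utp15 and Tomm70a. The other called genes were Pdcd1lg2 (nearest Slc35c2, Gne and Mrps27), Icosl (Rnf214, Ccdc86 and Arhgap12) and Cd226 (Shoc2, Rnf115 and Capza2), whose own spreads were only 0.09, 0.13 and 0.24. All these profiles share the contrast of the anti-PD-1/L1 arrays with the rest, in which most genes were called.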

How the data were processed

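Transcripts were measured on 9 arrays, 3 per group. The authors deposited 1 log2 value per probe set and array, which per the submitters' processing notes came from RMA (oligo 1.38.0). No genome build for the probe sets is used here. Of 72688 probe sets, 6732 were controls. Probe sets naming 1 gene (31258 of 65956) were kept, with 2108 symbols updated through RefSeq (GRCm38.p6), and for 441 genes with several the one with the highest mean was used. The 30702 genes were tested without a filter on low values in limma 3.58.1 (R 4.3.3), with 1 mean per group and 6 residual degrees of freedom. The script was run on simulated data with 1 spread per group for all genes. Against anti-PD-1/L1, 14 of 154 calls were false for the combination and 10 of 158 for anti-CD27. Between the combination and anti-CD27, 0 of 144 were false. Of changes of 1.25-fold, 2% to 10% were recovered.

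The 8 genes, the lists and the tests were chosen with earlier results of these data known. Named were the 8 genes, up to 4 called genes per pathway list or the largest difference where none was called, up to 3 called genes per marker list, and the 3 nearest profiles, leaving out predicted genes, microRNAs, olfactory and antigen receptor segments and small nucleolar RNAs. In comparisons with anti-PD-1/L1, lists are given as counts only, a limit set after the values were seen. Where a probe set was at background, the deposited value was kept. Some genes of the lists are not reported here. Alternatives were quantile normalization, 6 arrays only, a filter on low means, all transcript probe sets, the positive control covariate, a replicate block, leaving out each array and, chosen after seeing the data, a trended robust spread and array weights. The number of arrays limits the precision.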

Additional observations from a re-analysis of the deposited data

How the results depend on the processing

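Between the combination and anti-CD27, 392 genes were higher and 162 lower. These counts were 1225 and 428 with the 6 arrays alone, 1817 and 700 with array weights (chosen after seeing the data), 277 lower with the positive control covariate, and 136 to 943 and 38 to 283 with 1 array left out. The high ends came without anti-PD-1/L1 replicate 1. The fall of Cd274 missed the threshold after quantile normalization (-0.65, limma adjusted p = 0.0619), over all transcript probe sets (-0.64, limma adjusted p = 0.0715) and with the replicate block (-0.64, limma adjusted p = 0.0582), and it was -0.68 to -0.56 with 1 array left out. Cd86 passed at -0.44 under the filter on low means (limma adjusted p = 0.0453), at -0.40 with array weights (limma adjusted p = 0.0205), and was -0.55 to -0.32 with 1 array left out. With the covariate Cd28 turned to -0.059 and Icos to -0.0038. In lists, Grap2 passed with the 6 arrays alone (-0.24), the covariate (-0.31) and array weights (-0.22).

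Against anti-PD-1/L1, the combination had 9075 higher and 33283 lower over all transcript probe sets, 6251 lower under the filter, 9140 lower after quantile normalization, and 897 higher and 1024 lower with the covariate. Anti-CD27 had 9095 and 33118, 6340 lower, 9407 lower, and 1086 and 1336. With the covariate the combination differed by -1.24 for Cd226, -0.012 for Cd274, -0.66 for Cd28, 1.61 for Cd80, -0.54 for Icos, 0.72 for Icosl and -0.084 for Pdcd1lg2. Anti-CD27 then differed by -1.27 for Cd226, 0.75 for Cd274, -0.60 for Cd28, 0.19 for Cd80, -0.53 for Icos, 0.63 for Icosl and -0.094 for Pdcd1lg2. None of these differences with the covariate was called in either group. After quantile normalization Cd226 was 0.10 in the combination and -0.078 in anti-CD27, and Cd86 passed at 0.26 in anti-CD27. With the 6 arrays alone Cd226 in the combination (0.43, limma adjusted p = 0.0524) and Pdcd1lg2 in anti-CD27 (0.15, limma adjusted p = 0.0509) were lost, and Cd86 in anti-CD27 passed (0.23, limma adjusted p = 0.00899). With 1 array left out, the combination ranged from 0.34 to 0.60 for Cd226 and from -0.32 to -0.092 for Cd86, and anti-CD27 from 0.13 to 0.40 for Cd226, 0.21 to 0.25 for Cd86 and 0.12 to 0.17 for Pdcd1lg2. The cause of these shifts was not tested.

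Values above background numbered 21 of 72 by the 95th percentile and 66 by the mean of the controls. Same-numbered arrays had correlations of -0.20 to 0.16, and differently numbered arrays -0.18 to 0.16, so no pairing by number was seen. With 3 arrays per group this check cannot show that the mice were unpaired. The block ended the call on Cd274 and changed no other call on the 8 genes. Each of the 8 genes had 1 probe set, so a choice of another could not be run, and Pdcd1lg2 was removed by the filter on low means. Signal near background and 3 arrays per group limit the smaller differences.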
